A study of Bos taurus with 20 samples.

Results

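RAB genes were followed in 20 one-colour arrays of bovine ovarian follicle cells. All array probes whose gene name begins with RAB and a digit were taken, leaving out names with FIP, GAP, IF or EP after the number, which left 158 probes for 59 names among the 22550 genes or transcripts on the array. Of the 59 names, 57 are RAB GTPases, and the other two, RAB3IP and RAB3IL1, are names of exchange factors that the naming rule let through. Theca (TH), granulosa (GC) and cumulus (CC) cells, cumulus cells after 4 h of in vitro maturation (CC IVM) and oocytes were each represented by 4 biological replicates. TH had been scraped from the follicle walls, GC and the cumulus-oocyte complexes had been aspirated from the same kind of antral follicles (3 to 6 mm) of slaughtered cattle, and the CC IVM were detached from complexes cultured for 4 h. The medium of that culture, the number of animals, the number of cells or oocytes behind each replicate and the age of the cattle are not given in the sources used here, so the p-values measure the spread between these samples.

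RAB proteins are small GTPases that mark membrane compartments. In the GTP-bound form, set by exchange factors, they sit on a membrane and recruit effectors that move, tether or fuse vesicles, and GTPase-activating proteins return them to the GDP-bound form, which GDP dissociation inhibitors extract from the membrane. In the follicle they serve hormone and matrix secretion by the somatic cells, receptor recycling, the release of extracellular vesicles from multivesicular endosomes and, in the oocyte, the storage and movement of vesicles before maturation.

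Each value below is the median over the spots of a gene of log2 processed signal minus the 75th percentile of its array, so a value of 0 is the level of a probe at that percentile and a difference of 1 is a doubling of signal. Levels of different genes are not compared, because probes differ in brightness. A gene is called where its adjusted p in limma, corrected by Benjamini-Hochberg over all 22550 genes or transcripts, was under 0.05. A gene was above background on an array where the scanner software marked at least 1 of its spots as well above background, and where a group had no such array its value is a limit. Most names, 58 of 59, were measured by 2 distinct 60-base sequences and RAB3C by 4, giving 120 sequences in all.

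The probe sequences below are shown because they are the target sites behind contrasting members, and because a script found in them a motif of the GTP-binding fold, which places them in the coding part of the transcript. Capitals mark the codons of the motif, and coordinates are those of the annotated transcript (UMD 3.1), since the position of the probe inside it is not given. The phosphate-binding loop was read in 2 of the 120 sequences against 0.0138% of the 50909 distinct probe sequences of the array, and switch I in 2 against 0.00589%. The motif that contacts the guanine base was read in 3 against 0.271%, the second such motif in 2 against 0.0157%, and switch II in 0. Only the 3 frames of the probe's sense strand were read, and no motif overlapped another. RAB11A (chr10:12691046-12710296) and RAB27A (chr10:55120522-55158773) were higher in the oocyte, and RAB14 (chr8:112502334-112512347) was lower there.
RAB11A, switch I: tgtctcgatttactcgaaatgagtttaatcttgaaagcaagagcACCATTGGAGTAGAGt
RAB27A, phosphate-binding loop: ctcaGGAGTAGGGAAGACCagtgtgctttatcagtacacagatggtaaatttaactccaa
RAB14, switch I: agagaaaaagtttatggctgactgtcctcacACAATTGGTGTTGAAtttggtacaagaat
RAB14, phosphate-binding loop: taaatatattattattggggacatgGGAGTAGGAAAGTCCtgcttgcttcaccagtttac
RAB32 (chr9:84937829-84969252) and RAB38 (chr29:7560395-7625766) are close paralogs that act together in lysosome-related organelles such as melanosomes, and they differed in direction in the oocyte. One probe of each lies at the same place of the second guanine-contacting motif, and over 60 bases these probes have 47 in common and 13 that differ.
RAB32, second guanine-contacting motif: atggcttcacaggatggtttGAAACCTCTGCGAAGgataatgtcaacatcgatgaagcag
RAB38, second guanine-contacting motif: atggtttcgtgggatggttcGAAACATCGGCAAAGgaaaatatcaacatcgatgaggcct

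Most RAB genes were read in every cell type. Of the 59, 40 were above background on all 20 arrays, and 50 were so on all 4 arrays of TH, 46 of GC, 48 of CC, 45 of CC IVM and 46 of the oocyte. RAB6C was above background on none of the 16 arrays of TH, GC, CC and oocyte, RAB44 and RAB19 on 1 and 2 of them, and RAB3B on 2 oocyte arrays only. RAB39 was above background on the 4 oocyte arrays and on none of the other 16. At least 3 arrays of a group were above background for 55 members, all but RAB19, RAB3B, RAB44 and RAB6C. The array calls RAB7L1 the gene now named RAB29, RAB39 the gene named RAB39A, and gives the name RAB6C to a transcript whose accession belongs to RAB6A in RefSeq, so RAB6C is used here only as the name of that transcript. RAB21 is placed by the array's annotation on a 645-base span of chromosome X (97425377 to 97426021), and which copy its probes read was not tested.

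The oocyte arrays stood apart from the somatic ones in signal. Their 75th percentile of processed intensity lay between 1521 and 2891, against 284 to 1101 in the other groups, and oocyte replicate 2 had the smallest share of probes well above background (49.3%, against 54.2 to 68.8% on the other arrays). By their averages, marker genes were highest in the groups they were listed for, but some were also read in other groups. The 6 oocyte genes (GDF9, BMP15, ZP2, ZP3, ZP4 and NLRP5) averaged 5.14 to 5.53 on the oocyte arrays and -5.31 to -1.38 on those of TH, GC and CC, and the 5 theca genes averaged 5.56 to 5.90 in TH and -4.45 to -3.32 in the oocyte. The theca genes averaged 0.42 to 2.44 in GC and -1.18 to -0.19 in CC, and 4 were above background on at least 3 GC arrays. The 5 granulosa and cumulus genes averaged 1.36 to 2.89 in GC, 2.47 to 3.16 in CC and -1.58 to -0.57 in TH. They averaged -5.13 to -4.15 in the oocyte, where CYP19A1 and FOXL2 were above background on no array. The part of other cell types in the RAB values was not tested.

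**Figure D1:**
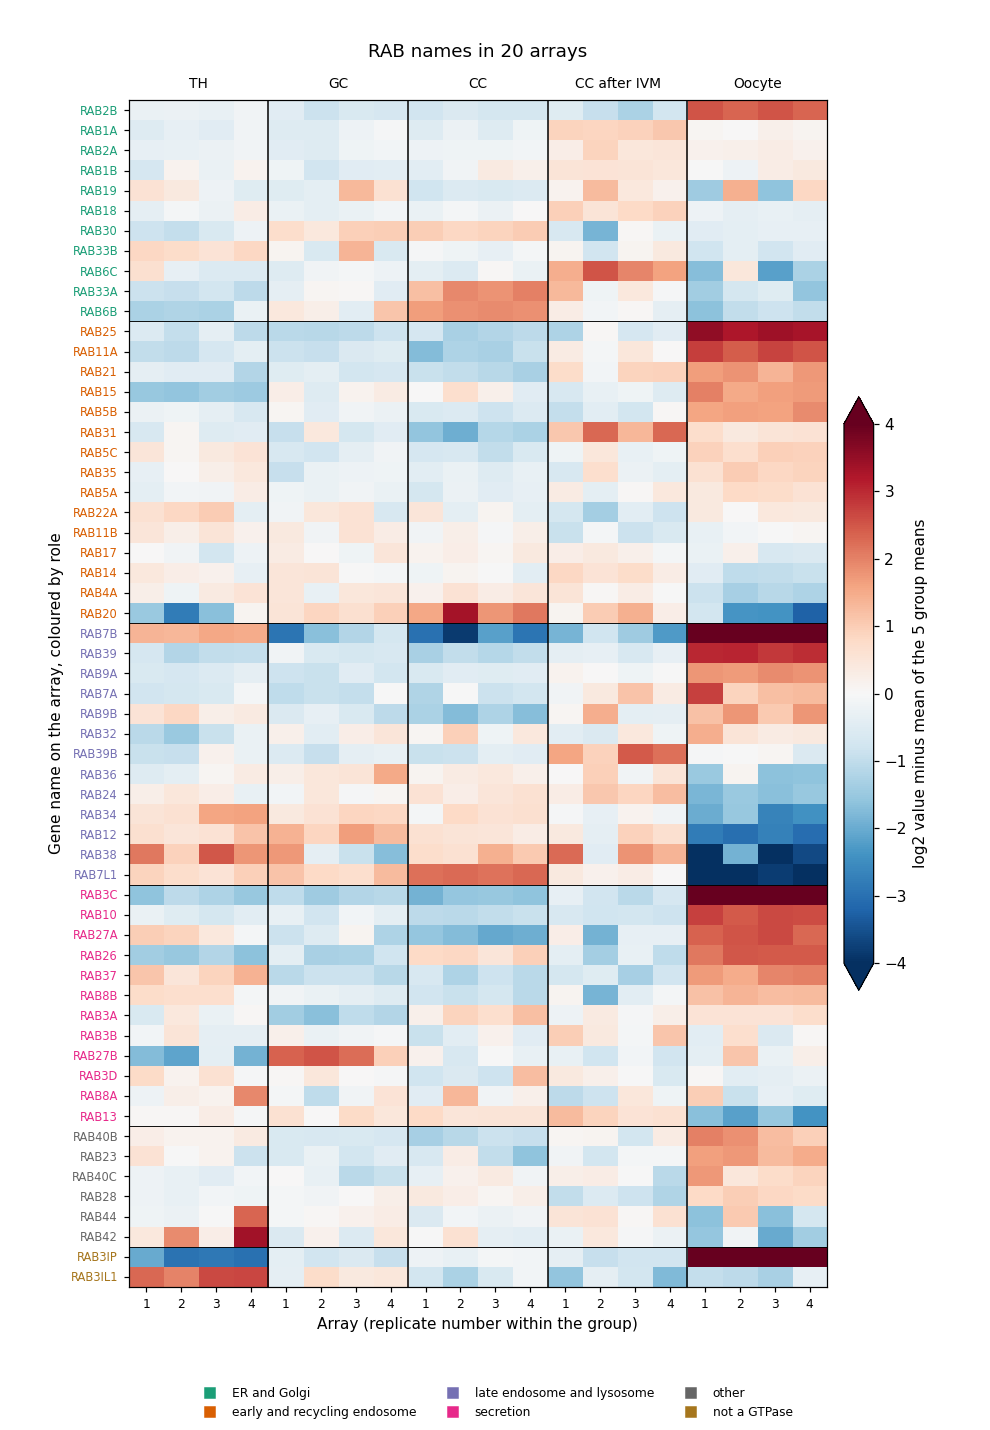
Each cell is the log2 value of a RAB name (rows, grouped and coloured by role) on 1 array (columns, 4 replicates per group) minus the mean of that name's 5 group means, with colours that end at 4 in either direction. The oocyte columns hold most of the darkest cells, with RAB3C, RAB7B and RAB3IP high and RAB7L1, RAB38 and RAB12 low.

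The first comparison asked which RAB genes differ among TH, GC, CC and the oocyte. The moderated F-test over the 16 arrays called 47 of the 59 members, or 79.7%, beside 71.3% of all genes or transcripts. The oocyte was most often the extreme type: its mean was the highest of the 4 for 31 members and the lowest for 22, which left 6 with an intermediate mean. Against the mean of the 3 somatic types, 30 members were higher in the oocyte, or 50.8%, beside 32.9% of all genes or transcripts, and 17 were lower, or 28.8%, beside 38.3%. Without RAB3IP and RAB3IL1 the counts were 29 and 16 of 57. The median difference was 0.45 over the members and -0.52 over everything tested. With genes kept only if above background on at least 3 arrays of a cell type, 30 of 55 members were higher and 17 lower. The shares of all genes or transcripts kept were 42.5% and 43.4%. The median differences were then 0.80 over the members and -0.03 over all kept. Within slide 1, which holds replicates 1 and 2, 29 members were higher and 12 lower, beside 29.6% and 25.9% of all genes or transcripts. Within slide 2, with replicates 3 and 4, 27 and 17 were, beside 29.7% and 49.6%. Without oocyte replicate 2 the counts were 30 and 19, beside 32.6% and 52.3%. With normexp background correction they were 26 and 26, an even split where 63.8% of the members called had been higher in the oocyte, and the shares of all genes or transcripts shifted with them, to 24.0% higher and 67.1% lower.

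For 27 members all 4 oocyte arrays lay above all 12 somatic arrays and the call was passed, or 45.8%, beside 25.3% of all genes or transcripts. For 8 members (13.6%, beside 20.6%) all 4 oocyte arrays lay below.

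**Figure D2:**
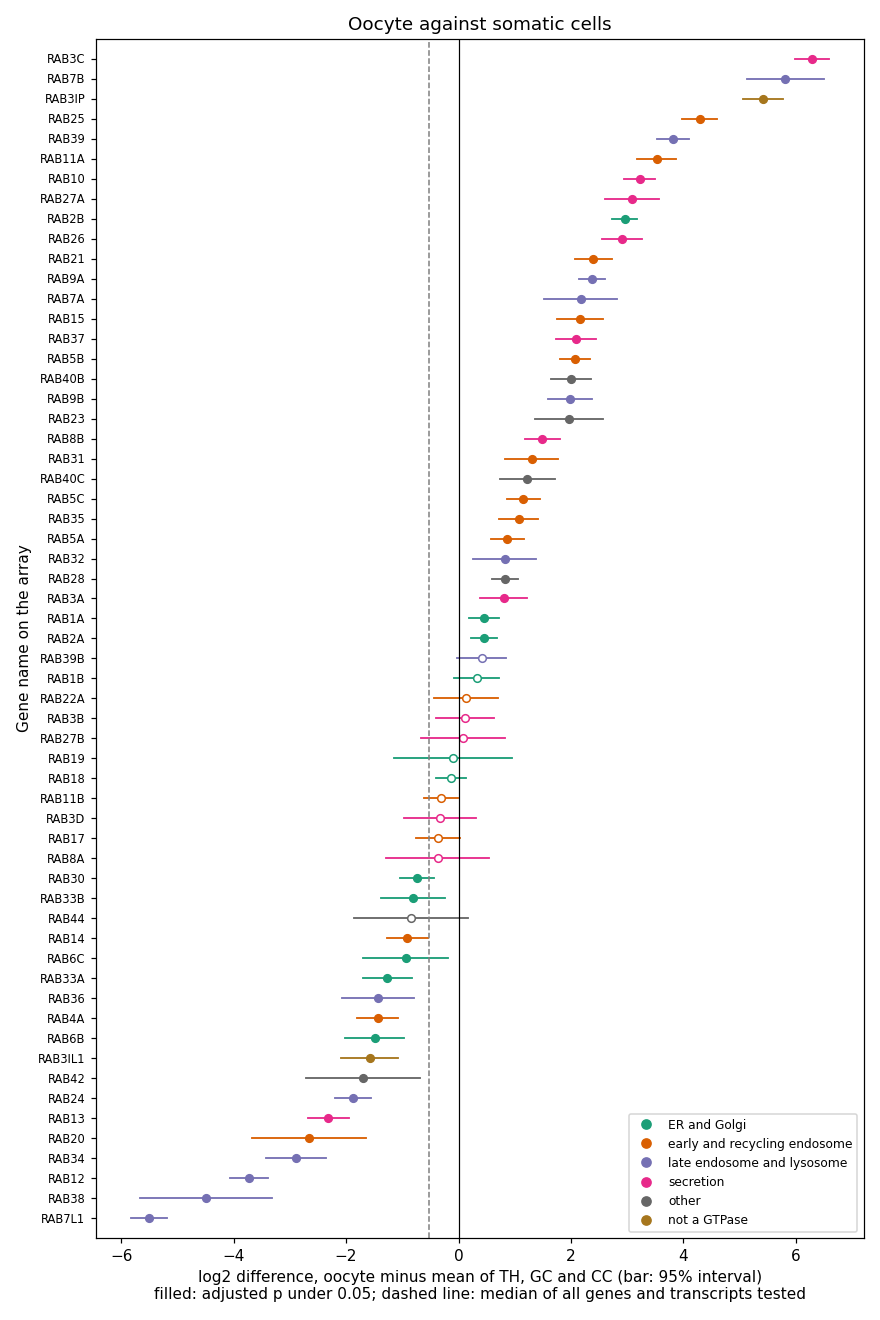
Points give the log2 difference of each RAB name between the oocyte (4 arrays) and the mean of TH, GC and CC (12 arrays), bars the 95% interval, and filled points an adjusted p under 0.05. The points run from -5.51 (RAB7L1) to 6.29 (RAB3C, fitted against somatic values mostly below background), and the dashed line marks the median of all genes or transcripts at -0.52.

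The counts of the role groups below stand against the shares of all genes or transcripts, 32.9% higher and 38.3% lower in the oocyte. RABs of secretory vesicles were the first group in which the oocyte stood high, with 7 of 12 members higher, 1 lower and 4 not called (median difference 1.15). RAB3C, one of the RAB3 proteins of regulated exocytosis, gave the largest difference of all members. Its values were -1.22, -1.11, -0.71 and -1.01 in the 4 oocyte replicates, and -7.79, -7.38 and -6.91 as the lowest, median and highest of the 12 somatic arrays. The groups were far apart, but RAB3C was above background on no TH or CC array and on 1 GC array. Limits are therefore given against the types without such an array, and the oocyte was at least 19.3-fold higher than TH and at least 21.1-fold higher than CC (adjusted p = 5.8e-15 for the oocyte against the somatic mean). All 4 of its probe sequences were called higher in the oocyte, where every spot was above background.

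The other RAB3 genes moved less. RAB3A was higher by 0.80 (standard error 0.20, adjusted p = 0.0017), with oocyte values of -2.03, -2.01, -2.03 and -1.87 that fell inside the somatic range of -4.23 to -1.36. In RAB3A the CC values reached those of the oocyte, while GC were lowest. RAB3D differed by -0.32 (adjusted p = 0.33) and RAB3B, above background on no somatic array, was not called (adjusted p = 0.67).

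RAB10, a RAB of exocytic and glucose transporter vesicles, read -1.26, -1.54, -1.34 and -1.39 in the oocyte and -5.07, -4.58 and -4.11 (lowest, median and highest) in the somatic arrays. All 4 oocyte arrays were above every somatic array, and the difference was 3.22 (standard error 0.13, adjusted p = 2.8e-12). RAB27A docks secretory granules and multivesicular endosomes at the plasma membrane and acts in exosome release. Its oocyte values were -2.33, -2.17, -2.05 and -2.38, and its somatic values ran from -6.75 through a median of -5.37 to -3.71. RAB27A was not above background on any CC array and was so on 2 GC arrays and 4 TH arrays. It was at least 9.04-fold higher in the oocyte than in CC (adjusted p = 1.1e-09), and both of its sequences, the one with the phosphate-binding loop included, were called higher in the oocyte than in the somatic mean. RAB26, a RAB of secretory granules, was higher by 2.91 (standard error 0.17, adjusted p = 2.2e-10), with 0.24, 0.60, 0.58 and 0.58 in the oocyte and -3.52, -2.87 and -0.91 as the lowest, median and highest somatic values. The somatic values nearest to the oocyte were those of CC. RAB37 (2.10) and RAB8B (1.49) also passed the test upward, while RAB8A differed by -0.37 (adjusted p = 0.42).

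RAB13, which acts at tight junctions and in traffic to the cell surface, was the secretory member that was lower in the oocyte. Its oocyte values were 2.90, 2.40, 3.06 and 2.18, against 4.55, 5.06 and 5.37 as the lowest, median and highest of the somatic arrays. The oocyte arrays lay below all the others, by 2.32 on average (standard error 0.17, adjusted p = 4.8e-09).

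Among the 15 RABs of early and recycling endosomes, 9 were higher in the oocyte, 3 were lower and 3 were not called (median difference 1.07). RAB25, the epithelial member of the RAB11 family, read 1.88, 1.56, 1.71 and 1.62 in the oocyte and -2.97, -2.71 and -2.02 at the lowest, median and highest of the somatic arrays. RAB11A, which directs recycling endosomes, read 2.73, 2.40, 2.67 and 2.49 in the oocyte and -1.77, -0.94 and -0.41 in the same order. In both genes the 4 oocyte arrays were high and no somatic array came near them, with differences of 4.29 (standard error 0.15, adjusted p = 5.6e-13) and 3.53 (standard error 0.16, adjusted p = 1.5e-11). The RAB11A sequence with switch I gave 3.55 and the other 3.50.

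RAB11B, the close paralog of RAB11A, was not called (-0.31, 95% interval -0.62 to -0.01 before correction, adjusted p = 0.062), with oocyte values of 1.89, 2.07, 2.18 and 2.28 inside the somatic range of 2.04 to 2.77 except in replicate 1. The log ratio of RAB11A to RAB11B ran from 0.21 to 0.84 in the 4 oocyte replicates and from -3.81 to -2.76 in the 12 somatic ones, without overlap.

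The 3 RAB5 genes, which define early endosomes, were all higher in the oocyte. RAB5B was higher by 2.07 (adjusted p = 6e-10), with -1.93, -1.88, -1.91 and -1.62 in the oocyte and at most -3.43 in the somatic cells. RAB5C was higher by 1.15 (adjusted p = 1.6e-06) and RAB5A by 0.87 (adjusted p = 2.9e-05), and in each the oocyte arrays lay above all somatic arrays. RAB21, linked to integrin endocytosis, was higher by 2.40 (adjusted p = 9.1e-10) and RAB15, of the recycling route, by 2.16 (adjusted p = 4.9e-08). In RAB15 1 sequence was above background on 0 TH, 1 GC and 1 CC array, and the other gave 1.49. RAB35, which acts in fast recycling and in exosome release, was higher by 1.07 (standard error 0.16, adjusted p = 2e-05), at 3.09, 3.48, 3.31 and 3.37 in the oocyte and 1.55, 2.20 and 2.90 across the somatic arrays. RAB31 was higher by 1.30 (adjusted p = 6.9e-05), and its paralog RAB22A differed by 0.13 (95% interval -0.44 to 0.70, adjusted p = 0.65). RAB17, of epithelial recycling endosomes, differed by -0.37 (adjusted p = 0.077).

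The 3 endosomal members that were lower were RAB20, RAB4A and RAB14. RAB4A, of the fast recycling route, read -3.64, -4.11, -3.89 and -4.02 in the oocyte against -3.07, -2.38 and -2.20 in the somatic arrays, a difference of -1.44 (standard error 0.17, adjusted p = 1.6e-06). RAB14, which moves cargo between the Golgi and endosomes, read -1.87, -2.43, -2.39 and -2.30 against -1.83, -1.36 and -0.91, a difference of -0.91 (standard error 0.17, adjusted p = 0.00019). Replicate 1 of the oocyte came close to the lowest somatic array in RAB14, yet the groups did not overlap, and the sequences with switch I and with the phosphate-binding loop gave -0.69 and -1.14. RAB20 was lower by 2.66 on the log2 scale (-2.66, adjusted p = 0.00011), but its TH values of -6.75 to -3.84 overlapped those of the oocyte, and only 1 TH array and 2 oocyte arrays were above background.

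RABs of late endosomes, lysosomes and related organelles went both ways, with 6 of 13 higher in the oocyte, 6 lower and 1 not called. RAB7B, of the route from late endosomes to the trans-Golgi network, read 1.08, 1.28, 1.23 and 1.27 in the oocyte and -7.36, -4.96 and -2.0 at the lowest, median and highest of the somatic arrays. The oocyte was highest and TH came next, and the difference was 5.81 (standard error 0.32, adjusted p = 1.3e-10), with 3 GC arrays and 1 CC array above background. RAB7A, which governs fusion with lysosomes, was higher by 2.18 (standard error 0.30, adjusted p = 9.1e-06), at 4.09, 2.25, 2.57 and 2.64 against at most 1.36. Replicate 1 of the oocyte was the highest of the 4. RAB9A and RAB9B, of the route of mannose 6-phosphate receptors, were higher by 2.38 (adjusted p = 1.5e-11) and 1.98 (adjusted p = 7e-08), and RAB9A read 5.25, 5.18, 5.35 and 5.26 in the oocyte and 2.59 to 3.12 in the somatic cells.

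RAB39, a RAB of late endosomes and phagosomes, read -3.16, -3.14, -3.34 and -3.22 in the oocyte and -7.47, -7.14 and -6.30 across the somatic arrays, none of which was above background. It was therefore at least 4.08-fold higher in the oocyte (adjusted p = 5.3e-13). RAB39B, its paralog, was above background in all groups and differed by 0.41 (adjusted p = 0.083).

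RAB7L1, which recruits the kinase LRRK2 to lysosomes and the Golgi, was the member furthest down in the oocyte. Its values were -6.42, -5.99, -5.69 and -6.22 in the oocyte, with 3 arrays above background, against -1.36, -0.85 and 0.39 across the somatic arrays. The groups were separate, and the difference was -5.51 (standard error 0.15, adjusted p = 4.7e-14), with both sequences lower, by -4.84 and -6.18. RAB38 read -8.99, -6.34, -9.10 and -8.06 in the oocyte, none above background, and -6.15, -3.46 and -1.97 across the somatic arrays, which made it at least 4.82-fold lower (adjusted p = 2.1e-06). Its value in oocyte replicate 2 was the highest of the 4, and the GC values from -6.15 to -2.72 were the most spread of the somatic types.

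RAB32, the paralog of RAB38, exceeded its somatic mean by 0.82 (standard error 0.26, adjusted p = 0.012), with oocyte values of 0.32, -0.61, -0.81 and -0.74 against -2.60, -1.16 and -0.16 across the somatic arrays, which overlapped. Without oocyte replicate 1, and within slide 2, RAB32 no longer passed the threshold. The printed probe of RAB32 gave 1.01, while that of RAB38 was above background on no oocyte array, although 47 of their 60 bases are the same. RAB12, of traffic from recycling endosomes to lysosomes, read -4.53, -4.76, -4.45 and -4.80 in the oocyte against -1.43, -1.12 and -0.07, a difference of -3.73 (standard error 0.16, adjusted p = 5.4e-12). RAB34, of lysosome positioning and cilia, was lower by -2.89 (adjusted p = 3.7e-08) and RAB24, linked to autophagy, by -1.88 (adjusted p = 1.3e-08), and in both the oocyte arrays lay below all others. Only 2 oocyte arrays had RAB34 above background. Its value averages unlike sequences, of which 1 was above background on no somatic array, so -2.89 is not the size for either sequence. RAB36 was called lower, but no oocyte array and only 1 TH array was above background, and the limit did not exceed 1, so no fold is given.

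RABs of the endoplasmic reticulum and Golgi had the smallest median difference of the role groups (-0.14), with 3 of 11 higher, 5 lower and 3 not called. These counts lay near the shares of all genes or transcripts. RAB2B, of the Golgi, was the exception in size, at 3.33, 3.16, 3.35 and 3.16 in the oocyte and -0.03, 0.23 and 0.70 across the somatic arrays. Its difference was 2.95 (standard error 0.10, adjusted p = 7.8e-13), beside 0.45 (standard error 0.11, adjusted p = 0.0014) for its paralog RAB2A. The RAB2A to RAB2B log ratio was -0.05 to 0.15 on the oocyte arrays and 2.23 to 2.90 on the somatic arrays, and these ranges did not overlap.

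RAB1A, of transport from the endoplasmic reticulum to the Golgi, was higher in the oocyte by 0.46 (adjusted p = 0.004) but did not pass the threshold within either slide, and RAB18, of lipid droplets, differed by -0.14 (adjusted p = 0.30). RAB1B (0.32, adjusted p = 0.13) and RAB19 (-0.10, adjusted p = 0.85) were not called either. The members lower than the somatic mean were RAB6B (-1.49, adjusted p = 5.4e-05), RAB33A (-1.27, adjusted p = 4.1e-05), RAB33B (-0.81, adjusted p = 0.013) and RAB30 (-0.73, adjusted p = 0.00026), all linked to the Golgi, and RAB6C, which no array of the 4 cell types had above background. Against TH alone RAB6B (-0.12, adjusted p = 0.74), RAB33A (-0.15, adjusted p = 0.60) and RAB30 (0.26, adjusted p = 0.20) were not called in the oocyte. RAB33B was called against TH (-1.34, adjusted p = 0.002) but not against GC or CC. The calls of RAB3A and RAB20 were lost within slide 1, that of RAB2A within slide 2 and that of RAB33B within both. Of the 6 members of other or little known roles, 4 were called higher in the oocyte (RAB40B by 2.00, RAB23 by 1.97, RAB40C by 1.22 and RAB28 by 0.82) and RAB42 was lower (-1.70), with 1 oocyte array above background. The values of RAB40B and RAB40C average unlike sequences, described below, and are not the size for either sequence. The call of RAB40C was lost with normexp and with the brightest probe. RAB44 differed by -0.85 (adjusted p = 0.11). RAB40B is a substrate adaptor of ubiquitin ligases, RAB23 restrains Hedgehog signalling and RAB28 is linked to cilia.

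**Figure D3:**
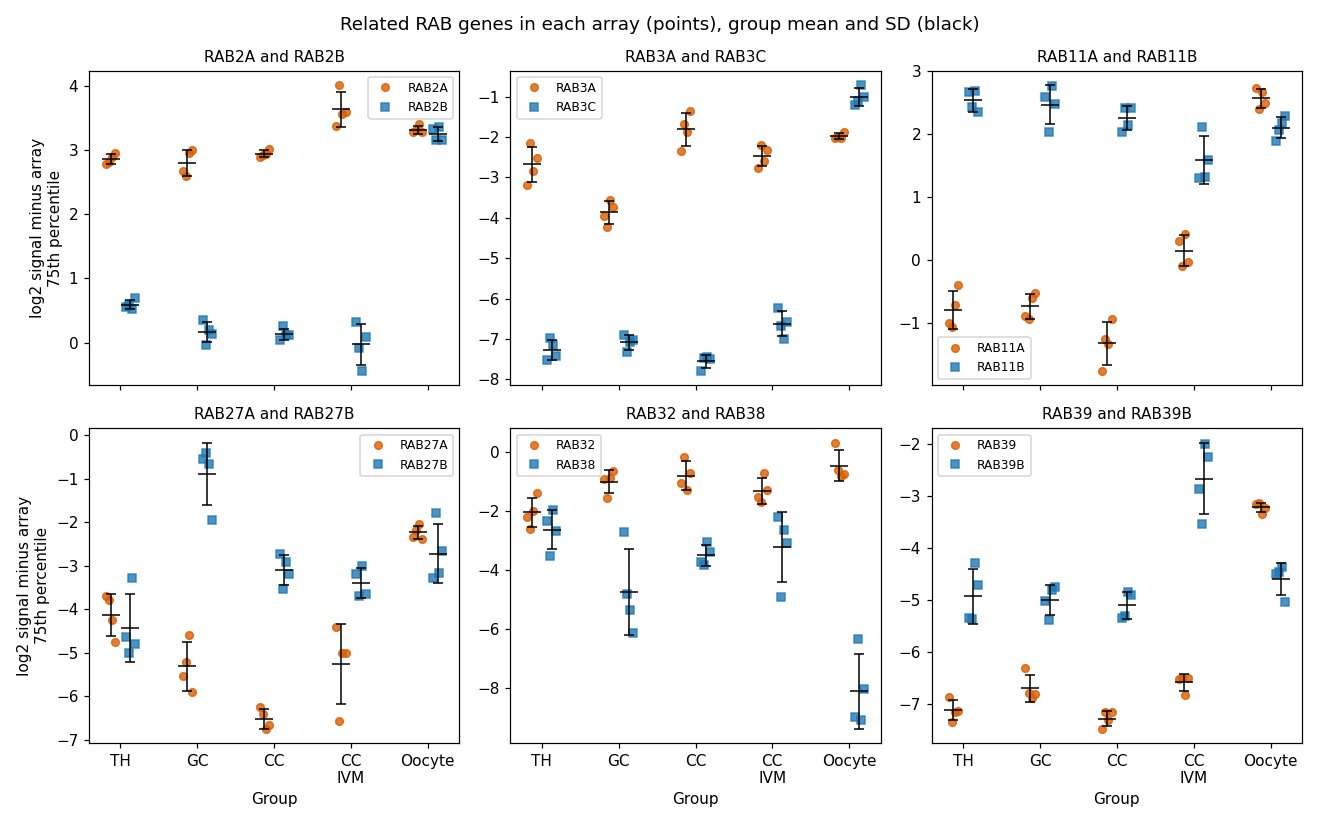
Each panel shows the log2 values of 2 related RAB names on the 20 arrays (points), with group means and SD in black. RAB2B, RAB3C, RAB11A and RAB39 rise in the oocyte while RAB2A, RAB3A, RAB11B and RAB39B shift little or less, RAB38 falls there to values below background while RAB32 does not, RAB27A is highest in the oocyte, and the gene value of RAB27B, which averages unlike sequences, is highest in GC.

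The sequences of a gene did not always agree. The median gap between the oocyte differences of sequences of the same name was 0.45, and 17 names had a gap over 1, some of them with a sequence at background. Spots that carried the same sequence differed by a median of 0.058. In 4 names the sequences were called in opposite directions in the oocyte, so that the gene's value is a mean of unlike readings. In RAB27B, the paralog of RAB27A, one sequence averaged 2.50 in oocytes, 1.22 in GC, 0.27 in CC and -2.47 in TH, and was highest in the oocyte (a difference of 2.83). The other was above background on no oocyte or CC array, on 1 TH array and on 3 GC arrays, so its call in the downward direction has no size, and the gene's own difference of 0.08 (adjusted p = 0.84) describes neither. In the somatic cells both sequences of RAB27B were highest in GC.

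The sequences of RAB1B gave 1.34 and -0.69, with every spot above background. In RAB40C the sequence called lower (-0.78) was above background on all arrays, and the one called higher was so on the 4 oocyte arrays, on 2 CC arrays and on no TH or GC array. In RAB3D the sequence called lower (-1.71) was above background on all arrays, and the one called higher, on 1 of its 2 spots, was at or near background in the somatic cells. RAB2A gave 0.98 and -0.08, both above background on all arrays. In RAB34 and RAB40B 1 of the 2 sequences was above background on no somatic array, so the differences of that sequence are not given. Which transcripts each sequence reads was not tested.

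**Figure D4:**
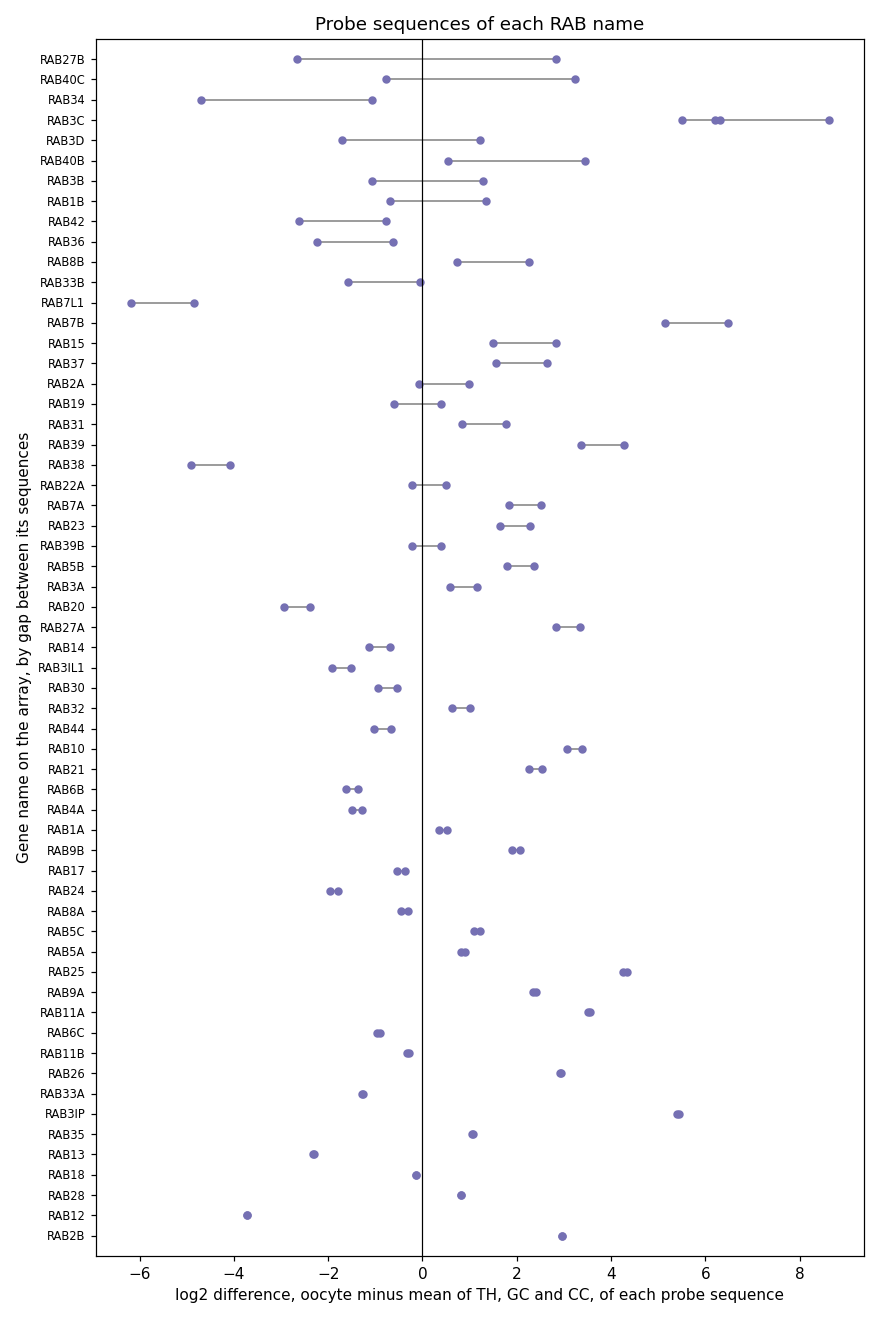
Each point is the log2 difference between the oocyte and the mean of TH, GC and CC for 1 probe sequence, averaged over its spots, and lines join the sequences of a name, sorted by the gap between them. Lines near the bottom are shortest. Those of RAB27B, RAB40C, RAB3D and RAB1B, called in opposite directions, cross 0, as do some lines of names without opposite calls, such as RAB3B.

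The second set of comparisons asked how the 3 somatic types differ from each other. Between TH and GC, 11 members were higher in TH (18.6%, beside 11.8% of all genes or transcripts) and 9 lower (15.3%, beside 14.5%). With the replicate number as a block RAB38 fell just short of the threshold (adjusted p = 0.05 when rounded, against 0.029), and RAB35 (0.04 against 0.087) and RAB42 (0.021 against 0.055) passed it. Between TH and CC, 11 were higher in TH (18.6%, beside 14.4%) and 12 lower (20.3%, beside 17.4%). Between GC and CC, 9 were higher in GC (15.3%, beside 4.61%) and 5 lower (8.47%, beside 5.27%). Within slides, with 2 arrays per type, the members that differed were 8 and 9 for TH and GC, 15 and 18 for TH and CC, and 0 and 2 for GC and CC (slide 1 and slide 2). Of all genes or transcripts, 5.89% were higher in TH than in GC and 4.15% lower within slide 1, and 7.21% and 5.27% within slide 2. For TH against CC the shares were 8.15% and 6.59%, then 9.37% and 9.06%. For GC against CC, 0.448% were higher in GC and 0.381% lower within slide 1, and 0.803% and 1.19% within slide 2. At an unadjusted p under 0.05 in limma, 14 and 15 members differed between GC and CC within the slides, against 22 over both. The share of all genes or transcripts at that unadjusted p was not computed. The split between GC and CC turned with the scaling. With the array median 4 were higher in GC and 5 lower, beside 3.1% and 5.29% of all genes or transcripts, and 3 and 8 with the deposited log2 table, beside 2.79% and 7.61%. The count of 14 for this pair also fell to 9 without CC replicate 1 and to 8 without CC replicate 2.

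TH stood above GC and CC most in RAB7B, RAB3IL1 and RAB37. RAB7B read -2.17, -2.20, -2.0 and -2.06 in TH, -6.46, -5.22, -4.70 and -4.25 in GC, and -6.53, -7.36, -5.71 and -6.47 in CC. TH did not overlap the others, and the differences were 3.05 from GC (adjusted p = 2.7e-05) and 4.41 from CC (adjusted p = 3.7e-07). RAB3IL1, an exchange factor for RAB3A, was higher in TH than in GC by 2.10 (adjusted p = 5.5e-05), at -0.27, -0.58, 0.07 and 0.09 in TH, and RAB37, of granules in immune and endocrine cells, by 1.96 (adjusted p = 3.6e-06). RAB27A also averaged higher in TH than in GC (-4.13 ± 0.48 and -5.31 ± 0.56, SD, n = 4 each, adjusted p = 0.0042 in limma).

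On average, blood and endothelial genes were also highest in TH. The 7 listed genes averaged -2.32 to -1.42 on the TH arrays, -4.27 to -3.66 in GC, -5.15 to -4.70 in CC and -5.48 to -4.07 in the oocyte, and 6 of the 7 were above background on at least 3 TH arrays. PTPRC, the leukocyte marker CD45, was above background on the 4 TH arrays and on no other array. Of the 7 genes, 3 were called higher in TH than in GC and 0 lower, and 6 higher and 1 lower than in CC. Against the somatic mean, 1 of the 7 was higher in the oocyte and 6 lower. The part of blood and endothelial cells in the TH values was not tested. In such bulk samples a change in the number of cells of a type cannot be told apart from a change in RNA per cell.

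GC stood above TH and CC most in RAB27B, at -0.54, -0.41, -0.66 and -1.94 against -4.64, -5.01, -3.29 and -4.79 in TH and -2.74, -3.54, -2.92 and -3.19 in CC. All GC arrays lay above all TH and CC arrays, with replicate 4 the lowest of the 4, and the differences were 2.21 from CC (adjusted p = 0.0036) and 3.55 from TH (adjusted p = 1.5e-05). These gene values average the unlike sequences of RAB27B described above, of which the dimmer was above background on no CC array. The differences are therefore not the size for either sequence, although both were highest in GC among the somatic types. RAB12 was the next, higher in GC than in TH by 0.59 (-0.44 ± 0.33 and -1.03 ± 0.30, SD, n = 4 each, adjusted p = 0.032 in limma). RAB39, the third by the rule used to name genes, was above background on no somatic array and so has no level to compare.

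CC stood above TH and GC most in RAB33A, RAB26 and RAB6B. RAB33A, a Golgi RAB of secretory and nerve cells, read -1.90, -1.19, -1.30 and -1.08 in CC, -3.47, -3.02, -3.04 and -3.57 in GC, and -3.98, -4.02, -3.85 and -4.15 in TH. The types were separate and ordered CC, GC and TH, and CC exceeded GC by 1.91 (adjusted p = 0.0002). RAB26 exceeded GC by 1.71 (adjusted p = 8.9e-05) and RAB6B, of retrograde Golgi transport, by 1.45 (adjusted p = 0.0058), with RAB6B at 1.71, 1.86, 1.92 and 1.86 in CC. Oocyte genes moved with RAB26: the 6 markers averaged -3.61 to -1.38 on the CC arrays, -5.31 to -4.14 in GC and -4.75 to -4.04 in TH, and their part in the CC values of RAB26 was not tested. RAB20, of phagosomes and low oxygen, was also highest in CC, at -2.41, -0.64, -2.18 and -1.83, against -6.75 to -3.84 in TH.

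The third comparison asked how RAB genes of cumulus cells differ after 4 h of IVM. In CC IVM 21 members were higher than in CC (35.6%, beside 30.3% of all genes or transcripts) and 10 were lower (16.9%, beside 15.5%), so the shares of members called lay close to the background. The median of all genes or transcripts moved by 0.37 and that of the members by 0.25. With quantile normalization the median of everything tested was 0.01, and 13 members were higher and 11 lower (54.2% of the calls higher, against 67.7%), beside 12.2% and 16.1% of all genes or transcripts. The deposited log2 table gave 18 and 16, beside 43.2% and 22.3%, and normexp gave 36 and 10, beside 65.3% and 13.1%. All 13 called higher under quantile normalization were among the 21. Every CC IVM array was on slide 3 and every CC array on slides 1 and 2, so slide and IVM cannot be told apart. CC IVM arrays also had fewer probes well above background (54.2 to 58.3%, against 58.9 to 62.8% in CC), and 4 of the 21 higher members (RAB19, RAB39, RAB3B and RAB44) were above background on no array of either group.

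Of 6 listed genes that cumulus cells raise during maturation 4 were on the array, and 3 of these were higher in CC IVM (median difference 5.62). Of the 5 granulosa and cumulus genes 4 were lower and 1 higher, and FOXL2 was above background on no CC IVM array. The oocyte markers moved the other way, with 4 of 6 lower and averages of -5.56 to -3.57 in CC IVM against -3.61 to -1.38 in CC. Of the 7 blood and endothelial genes 5 were higher in CC IVM, with averages of -4.11 to -3.39 against -5.15 to -4.70. Most of them were dim: 2 were above background on at least 3 CC arrays and 3 on at least 3 CC IVM arrays. PTPRC and CDH5 were above background on no array of either group, and HBB and PECAM1 on no CC array. The part of these cells in the RAB values was not tested.

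**Figure D5:**
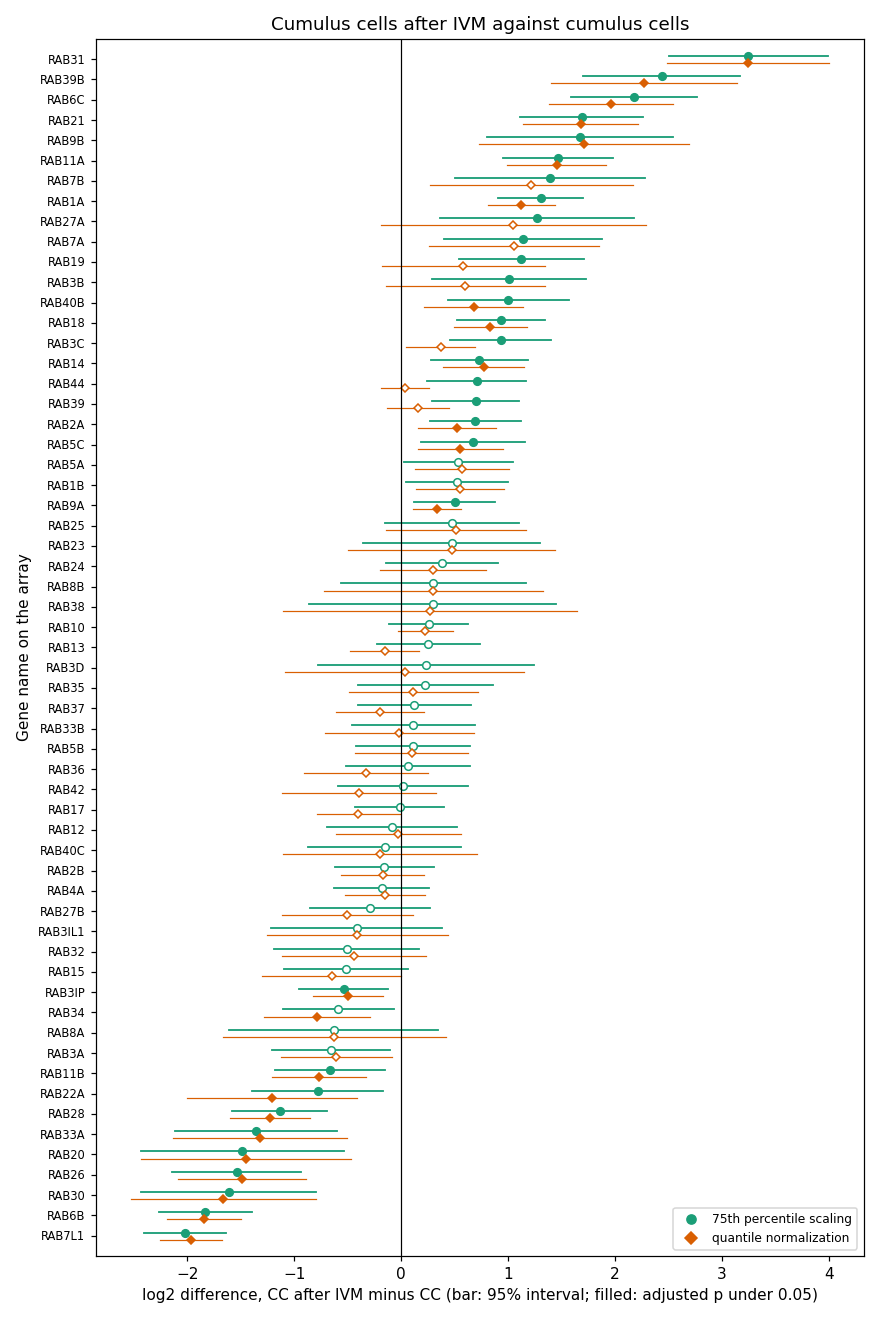
Points give the log2 difference between CC after IVM (4 arrays) and CC (4 arrays) with 75th percentile scaling (circles) and with quantile normalization (diamonds), bars the 95% interval, and filled points an adjusted p under 0.05. RAB31 and RAB39B lead upward and RAB7L1 and RAB6B downward under both scalings, whereas 8 names, among them RAB3C, RAB39 and RAB44, are called higher with the first scaling only.

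RAB31, which carries cargo from the trans-Golgi network to endosomes, read -1.32, -0.09, -1.09 and -0.09 in CC IVM and -3.99, -4.36, -3.54 and -3.67 in CC. The groups did not overlap, and the difference was 3.25 (adjusted p = 9.1e-05). RAB39B read -2.87, -3.53, -2.0 and -2.24 in CC IVM and -5.34, -5.30, -4.85 and -4.90 in CC, a difference of 2.43 (adjusted p = 0.00045). RAB21 was higher by 1.69 (adjusted p = 0.00091), RAB9B by 1.67 (adjusted p = 0.0088) and RAB11A by 1.47 (adjusted p = 0.0011), and in all 5 genes the CC IVM arrays lay above the CC arrays and the call stood under quantile normalization.

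RAB1A, of early secretory transport, read 3.49, 3.47, 3.51 and 3.66 in CC IVM and 2.08, 2.35, 2.07 and 2.41 in CC, a difference of 1.30 (adjusted p = 0.00046), and RAB18 was higher by 0.93 (adjusted p = 0.004) and RAB2A by 0.69 (adjusted p = 0.019, a call lost without CC replicate 3). The transcript named RAB6C was above background on 2 CC IVM arrays and on no CC array, which gave at least 1.49-fold (adjusted p = 0.00024). RAB7A (1.14), RAB7B (1.39), RAB27A (at least 1.12-fold, with no CC array above background) and RAB3C (above background on 2 CC IVM arrays and no CC array) were called with the 75th percentile and not with quantile normalization. RAB7A also lost its call without CC replicate 1 or 3, RAB7B without CC replicate 1, and RAB27A without any one CC replicate or without CC IVM replicate 1, 3 or 4. Among the RAB5 genes RAB5C was called (0.67, adjusted p = 0.031), but not without any one CC replicate or without CC IVM replicate 4, beside 0.53 for RAB5A (adjusted p = 0.079) and 0.11 for RAB5B (adjusted p = 0.72).

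The members furthest down after IVM were RAB7L1, RAB6B, RAB30, RAB26 and RAB20. RAB7L1 read -1.50, -1.73, -1.61 and -1.88 in CC IVM and 0.32, 0.37, 0.28 and 0.39 in CC, a difference of -2.02 (adjusted p = 3.1e-05). RAB6B read 0.33, -0.08, 0.09 and -0.32 against 1.71, 1.86, 1.92 and 1.86, a difference of -1.83 (adjusted p = 0.00011). These and RAB30 (-1.61, adjusted p = 0.0078), a Golgi RAB, RAB26 (-1.54, adjusted p = 0.002) and RAB20 (-1.49, adjusted p = 0.021) did not overlap CC and were also called under quantile normalization. Without CC IVM replicate 1 or 4 the call of RAB20 was lost. RAB28 (-1.14, adjusted p = 0.0019) and RAB33A (-1.36, adjusted p = 0.012) were lower as well, and RAB11B gave -0.67 (adjusted p = 0.039), a call that was lost without any one CC replicate, without CC IVM replicate 1, 3 or 4, with the brightest probe and with the replicate block.

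Genes that load, switch and read RAB proteins were set beside the members. Of 124 listed regulators and effectors, 121 were on the array, and 57 were higher in the oocyte (47.1%, beside 32.9% of all genes or transcripts) and 37 lower (30.6%, beside 38.3%), with a median difference of 0.23 beside -0.52. The counts of the separate lists below stand against the same background. RAB3IP and RAB3IL1 are counted here as well, as exchange factors. Among the genes that prenylate RABs and carry them between membranes, RABGGTA, the alpha subunit of the geranylgeranyl transferase, averaged -0.47 ± 0.32 in oocytes, 1.99 ± 0.42 in GC, 2.04 ± 0.21 in TH and 2.52 ± 0.19 in CC (SD, n = 4 each, adjusted p = 1.7e-09 in limma), a difference of -2.65. Its beta subunit RABGGTB was lower by -1.18 (adjusted p = 1.9e-07), the chaperone RABIF by -1.48 (adjusted p = 4.1e-06) and the escort protein CHML by -1.21 (adjusted p = 3.3e-06). GDI2 (0.26, adjusted p = 0.094) and CHM (-0.39, adjusted p = 0.12) were not called.

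Of 32 exchange factors, 18 were higher in the oocyte and 8 lower. RAB3IP, which activates RAB8 proteins, read 4.18, 4.21, 4.40 and 4.18 in the oocyte and -2.99, -0.67 and -0.08 across the somatic arrays, with a difference of 5.42 (standard error 0.17, adjusted p = 1.5e-13). SH3BP5, an exchange factor for RAB11, was higher by 4.24 (adjusted p = 2e-07) and DENND1B, one for RAB35, by 3.84 (adjusted p = 3.6e-13). RIN2, of the RAB5 exchange factors, was lower (-2.04, adjusted p = 6.4e-07), as was RAB3IL1 against the somatic mean (-1.58, adjusted p = 1.9e-05). RAB3IL1 was highest in TH and was not called between the oocyte and CC (-0.22, adjusted p = 0.50). RINL was also called lower (adjusted p = 0.0037), but no oocyte array had it above background and no size is given.

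Of 37 GTPase-activating proteins, 17 were higher in the oocyte and 12 lower. USP6NL, which acts on RAB5, was higher by 4.82 (adjusted p = 2.5e-12), TBC1D10A, which acts on RAB27A and RAB35, by 3.73 (adjusted p = 1.5e-07) and TBC1D7 by 2.86 (adjusted p = 2.7e-12). TBC1D9 (-3.43, adjusted p = 4e-06) and TBC1D22A (-2.61, adjusted p = 1.3e-09) were lower, and TBC1D12, above background on no oocyte array, was at least 2.68-fold lower (adjusted p = 1.9e-05).

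Of 45 effectors, 22 were higher in the oocyte and 12 lower. SYTL2, a synaptotagmin-like effector of RAB27, averaged 2.74 ± 0.15 in oocytes, -4.31 ± 1.69 in GC, -6.28 ± 0.99 in CC and 0.10 ± 0.10 in TH (SD, n = 4 each, 2 CC arrays above background), a difference of 6.23 (adjusted p = 2.2e-08 in limma). SYTL3, of the same family, was higher by 5.40 (adjusted p = 3.8e-14), and RIMS2, an effector of RAB3 at secretory sites that no TH array had above background, was at least 49.7-fold higher (adjusted p = 1.8e-09). RILPL2 (-4.79, adjusted p = 9.2e-09), RAB11FIP1 (-4.13, adjusted p = 1.5e-10) and MICALL2 (-3.78, adjusted p = 2.8e-05) were lower, and these act with RAB34 and other RABs, RAB11 and RAB13.

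After IVM, 23 of the 121 regulators and effectors were higher than in CC (19%, beside 30.3% of all genes or transcripts) and 27 lower (22.3%, beside 15.5%). Of the 37 GTPase-activating proteins 13 were lower and 4 higher, with a median difference of -0.48 beside 0.37 over all genes or transcripts. CHML, a RAB escort protein, rose by 2.25 (adjusted p = 0.00013) and RABGGTA fell by 1.18 on the log2 scale (adjusted p = 0.00087). RILPL2 was higher by 2.81 (adjusted p = 0.00027).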

How the data were processed

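RNA of 20 samples (200 ng of total RNA each) had been labelled with Cy3 and hybridised by the authors to customised bovine arrays (UMD 3.1 annotation), read with Agilent Feature Extraction 10.7.3.1 per the labels. The deposited scanner files give background-subtracted processed signal as intensity on a linear scale. The deposited log2 table holds log2 median signal minus the array median, and was used as an alternative.

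The 61325 non-control probes were grouped by gene name, and 9779 carried none, of which 734 were named through RefSeq accessions. The log2 of processed intensity minus the 75th percentile of each array was taken, outlier spots were left out, and a gene's spots were summarised by their median, as in the study. limma 3.58.1 in R 4.3.3 (lmFit, eBayes) was fitted to all 22550 genes or transcripts, once over the 16 arrays of TH, GC, CC and oocyte and once over the 8 arrays of CC and CC IVM, calling genes at a Benjamini-Hochberg adjusted p under 0.05. The somatic mean is the mean of the TH, GC and CC group means.

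A limit ("at least N-fold") sets the mean of the brighter group against, for each array of the dim group, the higher of the gene's own value and the lowest signal among probes well above background. It is given where no array of the dim group was above background. The number of arrays limits the precision. Of the 59 names, 49 matched a RefSeq symbol through an accession.

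Named members are the 10 furthest up and 10 furthest down in the oocyte among those called whose oocyte arrays lay outside the somatic range, the 3 that most exceed the other somatic types in each type, the 5 furthest up and down after IVM among those called without overlap, 12 RABs fixed by name for vesicle release and the main compartments, the paralogs of all these, members with probes in opposite directions and the names that are not GTPases. Only 8 were furthest down by that rule. Other members are named to account for all 59 and were chosen after their values were seen. For regulators, the prenylation genes, apart from 1 item that is not reported here, and the 3 furthest each way in each list are named. The members and lists were chosen with earlier results of these data known. The fits were tested on simulated data. The replicate numbers do not mark a shared animal or day in the labels. The deviations of same-numbered arrays correlated above 0.1 in all 4 pairs of TH and GC (0.117 to 0.340), which were taken as paired from the data, and not in every pair of the other groups compared.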

Additional observations from a re-analysis of the deposited data

Results flagged for a closer look

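In 19 of the 235 groups of 4 arrays examined for the named members (8.09%), 1 array lay far from the other 3, by Dixon's test at the 95% critical value. Chance alone marks about 1 in 20 groups. In the oocyte, RAB32 in replicate 1 was high (0.32, others -0.81 to -0.61), RAB26 in replicate 1 low (0.24, others 0.58 to 0.60), RAB22A in replicate 2 low (-5.41, others -5.04 to -5.02), RAB5C in replicate 2 low (3.24, others 3.49 to 3.53), RAB3IP in replicate 3 high (4.40, others 4.18 to 4.21), RAB3A in replicate 4 high (-1.87, others -2.03 to -2.01) and RAB5B in replicate 4 high (-1.62, others -1.93 to -1.88).

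In TH, RAB3IP in replicate 1 was high (-1.997, others -2.99 to -2.86), RAB21 in replicate 4 low (-1.51, others -0.80 to -0.70) and RAB6B in replicate 4 high (-0.21, others -1.23 to -1.15). In GC, RAB35 in replicate 1 was low (1.55, others 2.20 to 2.29), RAB3D in replicate 2 high (-3.74, others -4.24 to -4.16), RAB4A in replicate 2 low (-3.07, others -2.32 to -2.29), RAB7A in replicate 4 high (1.36, others 0.34 to 0.48) and RAB27B in replicate 4 low (-1.94, others -0.66 to -0.41). In CC, RAB13 in replicate 1 was high (5.37, others 5.08) and RAB3D in replicate 4 high (-2.96, others -5.01 to -4.78). In CC IVM, RAB21 in replicate 2 was low (-0.44, others 0.41 to 0.57) and RAB39 in replicate 3 low (-6.82, others -6.52 to -6.49, none above background).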

How the results depend on the processing

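The members higher in the oocyte numbered 26 to 34 and those called by the F-test 40 to 55 over all alternatives, which were quantile normalization, the array median, normexp, the deposited log2 table, the mean or the brightest probe, each slide alone, the slide or the replicate number as a block, a single fit over 20 arrays, genes at background removed, eBayes with trend and robust, arrayWeights, the methods' analysis of variance (F-test only, 47) and, chosen after seeing the data, spots of one sequence averaged first. Of the 47 members called in the oocyte, 34 kept call and direction under every alternative, and of the 31 called after IVM, 15 did. For IVM the slide entered as a random block, which gave 25 higher and 14 lower, beside 45.8% and 22.1% of all genes or transcripts. Because CC and CC IVM share no slide, this block cannot separate slide from IVM, and a call kept under it is no check on slide. Counts that moved by more than 1.5 times were the members lower in the oocyte with normexp (26 against 17), TH against GC within slide 1 and slide 2 (8 and 9 against 20), TH against CC within slide 1 (15 against 23), GC against CC with the array median (9) and within slides (0 and 2) against 14, higher after IVM with quantile normalization (13) and normexp (36) against 21, and lower after IVM with the deposited table (16 against 10). Leaving out 1 replicate gave 46 to 50 for the F-test, 29 to 31 higher and 16 to 19 lower in the oocyte, 17 to 22 for TH against GC, 21 to 25 for TH against CC, 8 to 16 for GC against CC, and 14 to 24 higher and 6 to 9 lower after IVM (6 without CC IVM replicate 4). RAB40C turned to -0.78 in the oocyte with the brightest probe, and RAB22A after IVM turned to 0.44 with normexp and 0.082 with the deposited table. The causes were not tested. By the correlations of same-numbered arrays only TH and GC were taken as paired, though TH replicate 1 and GC replicate 2, unlike in number, also correlated at 0.125. The labels give no such pairing, and the main calls between TH and GC come from the fit without a block. Of the calls between these types the block changed those of 3 members. With the replicate block the members called were 48 by the F-test, 30 higher and 18 lower in the oocyte, 21, 26 and 14 between the somatic types, and 15 higher and 8 lower after IVM. Signals near background limit RAB6C, RAB36, RAB38, RAB42 and RAB44, whose oocyte replicate 2 read highest.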
